A study of Mus musculus with 24 samples.

Results

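Chemokine ligands are small secreted proteins, a pair of them also made as membrane-bound forms, that guide the migration of leukocytes and other cells. All gene symbols that begin with Ccl or Cxcl followed by a number and at most 1 letter, together with *Cx3cl1* and *Xcl1*, were taken from both tables of values, which gave 39 genes of 49568 rows in each table. The rule used no measured value, but it was set with earlier results of these data known. RNA was measured in 2 experiments on mouse liver, one on freshly sorted cell fractions and one on ductal and mesenchymal cells kept in transwells, where the cells share medium across a membrane without touching.

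Each ligand binds 1 or several G protein-coupled receptors on the responding cell. Inflammatory ligands were grouped here by those receptors, and the rest as mucosal and epithelial, homeostatic and lymphoid, transmembrane or other ligands. CXC ligands with an ELR motif attract neutrophils through CXCR2, the interferon-induced ligands *Cxcl9*, *Cxcl10* and *Cxcl11* attract T and NK cells through CXCR3, and *Ccl2* and *Ccl7* attract monocytes through CCR2. *Cxcl12* is the homeostatic ligand of CXCR4 and is made by stromal cells in many organs. Many of the inflammatory ligands are transcribed within a short time of a stimulus through NF-kB, and in the liver they are made by ductal epithelium, fibroblasts, endothelium and macrophages alike.

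The sorted fractions came from 3 littermates, named A, E and F, which were heterozygous for B6.129S4-Pdgfratm11(EGFP)Sor/J on a C57BL/6 background and 12 weeks old. This allele replaces 1 copy of *Pdgfra* with a nuclear GFP, so all 4 fractions carried it. Mice A and E were male and mouse F was female. From each mouse EpCAM+ ductal cells (DCs) and PDGFRa+SCA1+, PDGFRa+SCA1- and PDGFRa-SCA1+ cells were collected, all from the gate without CD45, CD11b or CD31, which gave 4 fractions with n = 3 mice. The transwell cells were wild type C57BL/6 aged 8 to 12 weeks. SCA1+Msc were sorted by SCA1, with no gate on PDGFRa in either direction, and were expanded in mesenchymal medium (MM). DCs of other littermates were then placed on inserts for 15 days. The 6 groups with n = 2 samples each were DCs at day 0, DC organoids grown alone in expansion medium (EM), DC organoids co-cultured with SCA1+Msc in MM, SCA1+Msc at day 0, SCA1+Msc grown alone and SCA1+Msc co-cultured with DCs. The labels name the SCA1+Msc samples mesenchymal and ductal in the same phrase, and their markers were mesenchymal. EM and co-cultured organoids differed in medium as well as in the presence of SCA1+Msc, and these cannot be told apart.

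Values of the sorted fractions are given as deposited, on a scale close to TPM (transcript abundance per length, scaled to a fixed total per sample), and transwell values as TPM. Depth, recovered from the steps between low values, was 19629297 to 25652558 reads per sample in the sorted fractions and 19291307 to 28048380 in the transwell samples, so that 3 reads, the limit that a count of 0 allows, corresponded to at most 1.78 TPM on any ligand for which it could be computed. Limits of this kind cover counting error only. Each sorted fraction held its own markers, with summed values of 5 ductal markers from 54236 to 74150.0 in DCs and of 6 mesenchymal markers from 28741 to 32703 in PDGFRa+SCA1+ and 28547 to 51009.8 in PDGFRa+SCA1- cells. In PDGFRa-SCA1+ cells all 8 endothelial markers were high, with a sum of 3649.5 to 4935 against at most 48.6 in the other fractions, although CD31 was excluded in the sort and its gene *Pecam1* stood at 726, 732 and 929. PDGFRa-SCA1+ cells also had the highest summed leukocyte markers (324 to 536, against 32.0 to 233 elsewhere), and those of mouse E held ductal markers at 3706, against 79.2 and 314 in mice A and F. SCA1+Msc at day 0 held hepatocyte markers at 17689 to 22237 and ductal markers at 1156 to 2417. In bulk samples fewer cells of a type and less RNA per cell cannot be told apart. For the transwell samples the p-values measure only the spread between 2 samples of a group.

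Of the 39 ligands, 28 passed the filter on low values in the sorted fractions (at least 1 in at least 3 samples) and 33 in the transwell samples (at least 1 in at least 2 samples). *Ccl21b*, *Ccl27b*, *Ccl26*, *Ccl1* and *Ccl21c* were listed at 0 in all 24 samples, and *Cxcl15* did not pass in either experiment. *Xcl1*, *Ccl24*, *Ccl22*, *Ccl21a* and *Ccl12* passed in the transwell samples only. There *Ccl22* passed through DCs at day 0 alone, the only transwell group with a mean above 0. Its p-values against that group therefore give no further support. *Cxcl11* would not have passed in the transwell samples without SCA1+Msc at day 0. Its p-values that involve SCA1+Msc at day 0 give no further support either. A group mean of at least 10 was reached by 22 ligands in the sorted fractions and by 26 in the transwell samples, 27 in all. Reads of *Ccl19* and of the *Ccl21* genes are uncertain, because near-identical copies of these genes exist. On GRCm38 the ligands lie in clusters, with 12 on chromosome 11 and 11 on chromosome 5. *Cxcl5*, *Cxcl3*, *Cxcl15*, *Cxcl1* and *Cxcl2* follow each other on chromosome 5, as do *Cxcl9*, *Cxcl10* and *Cxcl11* further along, and *Ccl2* and *Ccl7* are 8.26 kb apart on chromosome 11.

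Promoters are shown for the 3 ELR genes and the CXCR3 ligand that fell most in cultured SCA1+Msc, and for *Cxcl12*, which rose in the same cells. They run from 250 bases before to 50 after the start of the gene, 5′ to 3′ on the strand of the gene, in RefSeq's annotation of GRCm38.p6. Capitals mark matches to the NF-kB consensus on either strand and, in *Cxcl10*, also a match to the pattern GAAA, any 2 bases, GAAA, which is bound by interferon regulatory factors. The 5 windows were *Cxcl1* at chr5:90890995-90891294, *Cxcl2* at chr5:90903649-90903948, *Cxcl3* at chr5:90785851-90786150 and *Cxcl12* at chr6:117168285-117168584 on the plus strand, and *Cxcl10* at chr5:92348840-92349139 on the minus strand.
Cxcl1: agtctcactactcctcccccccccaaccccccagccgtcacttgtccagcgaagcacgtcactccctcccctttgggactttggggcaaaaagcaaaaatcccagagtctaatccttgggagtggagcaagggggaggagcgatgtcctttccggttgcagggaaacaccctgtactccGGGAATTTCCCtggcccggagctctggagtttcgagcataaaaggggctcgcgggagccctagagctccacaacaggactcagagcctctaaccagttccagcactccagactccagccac
Cxcl2: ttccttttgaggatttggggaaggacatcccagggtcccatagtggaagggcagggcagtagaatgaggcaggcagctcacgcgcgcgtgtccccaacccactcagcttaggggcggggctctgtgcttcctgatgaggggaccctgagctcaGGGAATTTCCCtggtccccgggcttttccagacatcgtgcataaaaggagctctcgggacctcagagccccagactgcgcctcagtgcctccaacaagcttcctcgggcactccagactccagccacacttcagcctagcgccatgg
Cxcl3: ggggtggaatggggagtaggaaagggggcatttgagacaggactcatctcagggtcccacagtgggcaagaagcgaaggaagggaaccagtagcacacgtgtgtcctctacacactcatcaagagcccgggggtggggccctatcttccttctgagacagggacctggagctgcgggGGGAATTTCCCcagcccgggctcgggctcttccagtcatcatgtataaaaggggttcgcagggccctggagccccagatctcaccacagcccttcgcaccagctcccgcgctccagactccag
Cxcl10: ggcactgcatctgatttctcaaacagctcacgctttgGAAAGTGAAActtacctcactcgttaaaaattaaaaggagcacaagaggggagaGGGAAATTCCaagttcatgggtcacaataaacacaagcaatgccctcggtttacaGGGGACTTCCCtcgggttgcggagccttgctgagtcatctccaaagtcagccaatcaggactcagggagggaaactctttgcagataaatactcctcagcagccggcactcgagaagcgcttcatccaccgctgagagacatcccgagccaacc
Cxcl12: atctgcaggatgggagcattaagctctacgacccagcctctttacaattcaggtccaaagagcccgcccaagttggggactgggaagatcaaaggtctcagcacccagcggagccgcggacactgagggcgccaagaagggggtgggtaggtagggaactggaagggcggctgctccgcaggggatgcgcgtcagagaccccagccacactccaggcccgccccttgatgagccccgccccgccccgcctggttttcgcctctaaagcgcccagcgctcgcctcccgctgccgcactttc
The same 11 bases, GGGAATTTCCC, stood in *Cxcl1* from position -71 to -61, in *Cxcl2* from -97 to -87 and in *Cxcl3* from -73 to -63, counted back from the start, and matched on both strands with overlap. *Cxcl10* held GGGAAATTCC from -159 to -150 and GGGGACTTCCC from -104 to -94, and GAAAGTGAAA from -213 to -204. Neither pattern was found in the window of *Cxcl12*. RefSeq entries matched 27 of the 39 ligands with 33 windows, of which 8 held the NF-kB consensus (*Ccl1*, *Ccl20*, *Ccl27a*, *Ccl9*, *Cxcl1*, *Cxcl10*, *Cxcl2* and *Cxcl3*) and 3 held the GAAA pattern (*Ccl19*, *Cxcl10* and *Cxcl14*). Over all 32851 promoter windows these shares were 8.46% and 3.44%. The 5 windows shown were picked by the measured change of their genes, so they cannot test a link between pattern and change. *Ccl9*, whose window held the consensus, had a mean 2.83-fold above day 0 in SCA1+Msc alone and 5.54-fold in co-culture. A match describes the letters and is no evidence of binding.

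**Figure D1:**
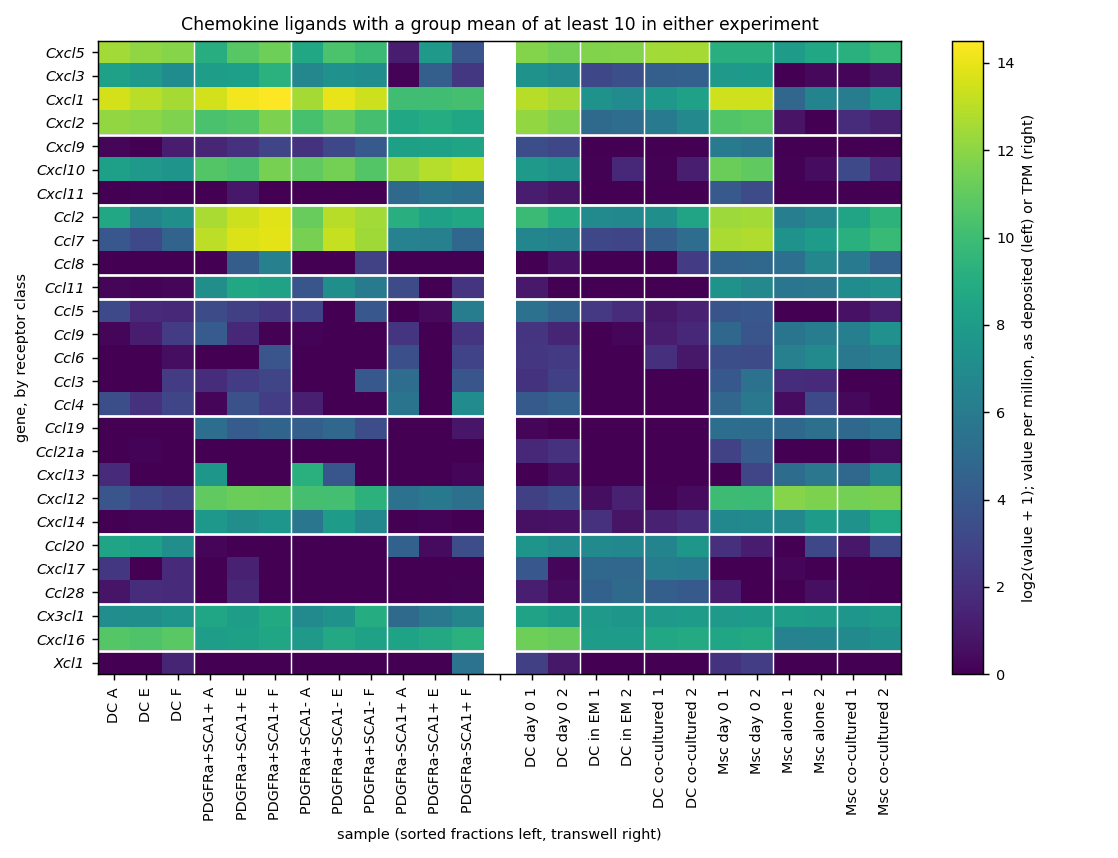
Levels of the 27 chemokine ligands with a group mean of at least 10 in either experiment, as log2(value + 1), with genes in rows ordered by ligand class and the 24 samples in columns, the sorted fractions on the left and the transwell samples on the right. *Cxcl1* is bright in every freshly sorted sample of either experiment and darker in all cultured ones, while *Cxcl12* is bright in mesenchymal samples, fresh or cultured.

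Chemokine ligands made up a large share of the RNA of freshly sorted cells. Summed over the 39 genes they took 1.81% ± 0.335 (SD, n = 3) of the column total in DCs, 5.20% ± 1.14 in PDGFRa+SCA1+, 3.05% ± 1.06 in PDGFRa+SCA1- and 1.003% ± 0.185 in PDGFRa-SCA1+ cells. *Cxcl1* led in DCs with 43.8% of that sum, followed by *Cxcl5* and *Cxcl2*, and it led in PDGFRa+SCA1+ cells with 35.6%, followed by *Ccl7* and *Ccl2*. In PDGFRa-SCA1+ cells *Cxcl10* alone was 69.7% of the sum. In the transwell experiment the share was 2.07% and 1.58% in DCs at day 0 and 2.9995% and 3.10% in SCA1+Msc at day 0. After culture it was 0.441% and 0.459% in EM organoids, 0.704% and 0.785% in co-cultured organoids, 0.509% and 0.512% in SCA1+Msc alone and 0.542% and 0.681% in co-cultured SCA1+Msc. Every cultured sample was thus below every day 0 sample. The leading ligand became *Cxcl5* in the organoids, at 78.6% and 78.9% of the mean sum in EM and co-culture, and *Cxcl12* in SCA1+Msc, at 68.3% alone and 48.0% in co-culture.

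**Figure D2:**
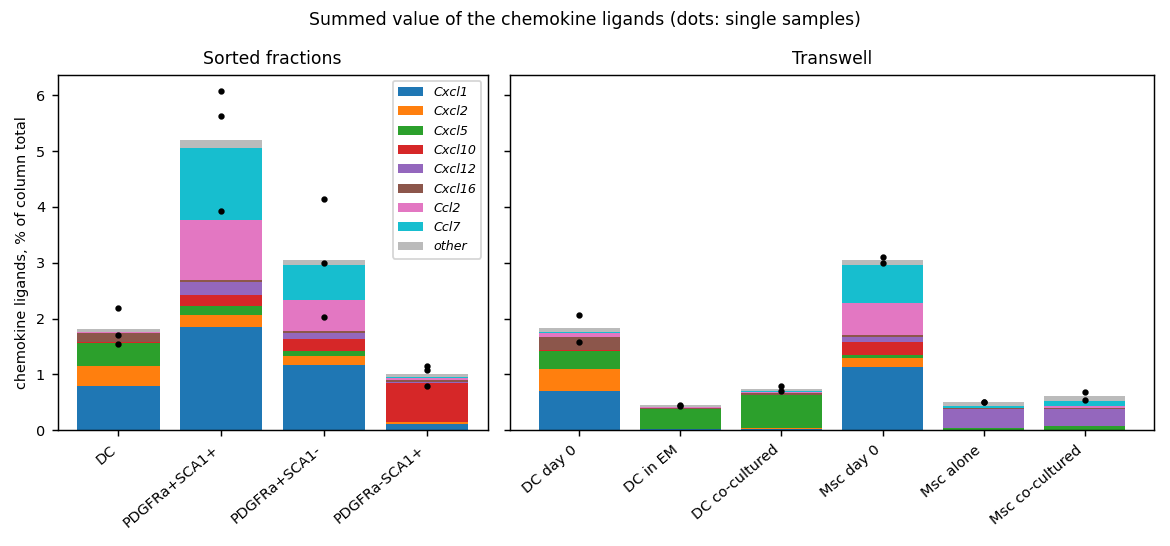
Summed value of the 39 chemokine ligands as a percent of the column total, for the 4 sorted fractions (left, n = 3 mice) and the 6 transwell groups (right, n = 2). Bars are group means split by gene, dots are single samples, and "other" holds the ligands not named in the legend. PDGFRa+SCA1+ cells are highest at 5.20%, and all cultured groups lie below 1%.

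The 3 stromal fractions were each set against DCs, to see which ligands each cell type of the duct and its surroundings contributes. Between PDGFRa+SCA1+ cells and DCs 12 of 28 ligands tested differed at an adjusted p under 0.05 (limma with Benjamini-Hochberg adjustment over all genes), 9 higher and 3 lower in the stromal cells, where 23.8% of all genes were called, 9.85% higher and 14% lower. The median log2 fold change of the ligands was 1.06, against -0.28 over all genes. In PDGFRa+SCA1- cells 13 ligands differed from DCs, 8 higher and 5 lower (28.8% of all genes called, 9.98% higher and 18.9% lower), with a median of 0.03 against -0.47. In PDGFRa-SCA1+ cells 13 differed from DCs, 5 higher and 8 lower (22.8% of all genes called, 11.5% higher and 11.3% lower), with a median of -0.02 against -0.04. PDGFRa-SCA1+ and PDGFRa+SCA1+ cells differed in 16, 4 higher and 12 lower in the former (18.8% of all genes called, 10.9% higher and 7.86% lower), with a median of -1.52 against 0.25. These comparisons share samples, and values are given for each.

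Of the ELR ligands, the neutrophil attractants, *Cxcl5* was highest in DCs, where it stood at 5679.6, 4448 and 3715 in mice A, E and F. It stood at 522, 1713 and 2513 in PDGFRa+SCA1+, 409.6, 1361 and 929 in PDGFRa+SCA1- and 1.27, 223 and 13.3 in PDGFRa-SCA1+ cells. Every DC sample was above every sample of the other fractions, and the difference passed the test only in PDGFRa-SCA1+ cells (log2 fold change -7.87, SE 1.23, adjusted p = 0.000497, limma), with adjusted p = 0.333 and 0.15 in the PDGFRa+ fractions. The PDGFRa-SCA1+ sample of mouse E, with the most *Cxcl5*, also had the most ductal markers, whose part in the result was not tested.

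*Cxcl1*, the ligand with the highest mean in each sorted fraction but PDGFRa-SCA1+ cells, stood at 12202, 8273 and 6116 in DCs, 11789, 19211 and 23303 in PDGFRa+SCA1+, 5961, 16780.1 and 10908 in PDGFRa+SCA1- and 1046, 1072 and 1180.2 in PDGFRa-SCA1+ cells. The first 3 fractions overlapped, and PDGFRa-SCA1+ cells were below all of them, 8.06-fold below DCs (log2 fold change -2.95, SE 0.37, adjusted p = 8.62e-05, limma). *Cxcl2* stood at 4610.2, 4011 and 3309 in DCs, 1313, 1511 and 3264 in PDGFRa+SCA1+, 1236, 2048 and 1195 in PDGFRa+SCA1- and 409, 504 and 382 in PDGFRa-SCA1+ cells. It was highest in DCs, and all 3 stromal fractions were lower without overlap, by log2 fold changes of -1.08 (adjusted p = 0.0299), -1.45 (adjusted p = 0.00548) and -3.199 (adjusted p = 1.77e-05). The call in PDGFRa+SCA1+ cells was lost without the DC sample of mouse A or E or the PDGFRa+SCA1+ sample of mouse A or E, with adjusted p = 0.106, 0.0844, 0.125 and 0.113 in that order. *Cxcl3* stood at 319, 225 and 134 in DCs, 273, 294 and 609 in PDGFRa+SCA1+, 104, 164 and 137 in PDGFRa+SCA1- and 0.0819, 19.6 and 4.05 in PDGFRa-SCA1+ cells. Only the last fraction stood apart, 28.5-fold below DCs and 49.5-fold below PDGFRa+SCA1+ cells (log2 fold changes -5.47 and -6.25, adjusted p = 0.000312 and 0.000159, limma). All 4 ELR ligands tested were thus lower in PDGFRa-SCA1+ cells than in DCs and than in PDGFRa+SCA1+ cells.

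The monocyte attractants *Ccl7* and *Ccl2* were the ligands with the largest excess over DCs, by difference of mean values, in both PDGFRa+ fractions. *Ccl7* stood at 8646, 13657 and 15568 in PDGFRa+SCA1+ and 2992, 9549.6 and 5603 in PDGFRa+SCA1- cells, against 14.2, 8.26 and 23.3 in DCs and 86.2, 79.8 and 28.4 in PDGFRa-SCA1+ cells. The 2 pairs of fractions did not overlap, and PDGFRa+SCA1+ cells were 829-fold above DCs (log2 fold change 9.67, SE 0.51, adjusted p = 8.52e-08, limma). *Ccl2* stood at 6375, 11012 and 14174 in PDGFRa+SCA1+, 2270.2, 8056 and 5736 in PDGFRa+SCA1-, 398, 92.5 and 149 in DCs and 548, 319.8 and 402 in PDGFRa-SCA1+ cells. Again the PDGFRa+ cells were above the others, 49.3-fold and 25.1-fold above DCs (log2 fold changes 5.81 and 4.73, adjusted p = 9.02e-06 and 4.4e-05). The gain of *Ccl7* in PDGFRa-SCA1+ cells over DCs (log2 fold change 1.98, adjusted p = 0.0139) was lost without mouse A or E of the former or mouse E of the latter, with adjusted p = 0.0586, 0.056 and 0.0644. *Ccl8*, a further CCR2 ligand, was listed at 0 in DCs and PDGFRa-SCA1+ cells and stood at 0, 18.6 and 80.000 in PDGFRa+SCA1+ and 0, 0 and 5.99 in PDGFRa+SCA1- cells, which no test called. With the mouse as a block, *Ccl8* passed the threshold in PDGFRa+SCA1+ cells against DCs and against PDGFRa-SCA1+ cells (adjusted p = 0.0408 and 0.0487). *Ccl12* had a mean below 1 in every fraction.

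*Ccl11*, the eosinophil attractant eotaxin, had the same order of mean levels over the fractions as *Ccl7*, its neighbour on chromosome 11. It stood at 143, 409 and 329 in PDGFRa+SCA1+, 13.7, 149 and 64.6 in PDGFRa+SCA1-, 9.33, 0 and 3.68 in PDGFRa-SCA1+ cells and 0.128, 0.124 and 0.141 in DCs, where the values were under 3 reads. Both PDGFRa+ fractions were above DCs (log2 fold changes 7.89 and 5.53, adjusted p = 4.28e-05 and 0.000653, limma). *Ccl17*, a CCR4 ligand of T cells, stood at 9.76, 0.993 and 12.7 in PDGFRa+SCA1+ cells, 0, 0 and 1.67 in DCs, 0, 0 and 0.331 in PDGFRa+SCA1- cells and was listed at 0 in PDGFRa-SCA1+ cells. Its gain in PDGFRa+SCA1+ cells over DCs (log2 fold change 2.26, adjusted p = 0.0286) was lost without the DC sample of mouse A or E, with adjusted p = 0.112 and 0.117. *Ccl24* reached 8.74 in the PDGFRa+SCA1- sample of mouse E alone.

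All 3 CXCR3 ligands were higher in every PDGFRa-SCA1+ sample than in any sample of the other fractions. *Cxcl10* stood at 4901, 7497 and 9591 in PDGFRa-SCA1+, 1601, 1298 and 3014 in PDGFRa+SCA1+, 1990.5, 2803 and 1561 in PDGFRa+SCA1- cells and 292, 234 and 182 in DCs. PDGFRa-SCA1+ cells were above all other samples and DCs below all other samples, 31.1-fold apart (log2 fold change 4.93, SE 0.35, adjusted p = 1.2e-06, limma). *Cxcl9* stood at 301, 319 and 355 in PDGFRa-SCA1+ cells and at no more than 15.5 elsewhere, 79.2-fold above PDGFRa+SCA1+ cells (log2 fold change 6.13, adjusted p = 1.66e-05). *Cxcl11*, which the annotation lists as a polymorphic pseudogene, stood at 31.6, 47.5 and 40.5 in PDGFRa-SCA1+ cells and at no more than 0.908 elsewhere (log2 fold change over DCs 5.32, adjusted p = 4.83e-06). It passed the filter through PDGFRa-SCA1+ samples alone, so its p-value gives no further support. *Cxcl9* was also above DCs in PDGFRa+SCA1- cells (log2 fold change 2.66, adjusted p = 0.00452) and in PDGFRa+SCA1+ cells (1.77, adjusted p = 0.0438), the latter lost without any 1 of 4 samples (DCs of mouse A or E, PDGFRa+SCA1+ cells of mouse E or F), with adjusted p between 0.088 and 0.161. All 3 genes lie together, with 18.6 kb between *Cxcl9* and *Cxcl10* and 10.7 kb between *Cxcl10* and *Cxcl11*. The endothelial and leukocyte markers of PDGFRa-SCA1+ cells moved with these values, and their part in the result was not tested.

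Among homeostatic ligands *Cxcl12* and *Cxcl14* marked the PDGFRa+ fractions. *Cxcl12* stood at 1998, 2395 and 2248 in PDGFRa+SCA1+, 1177, 1159 and 642 in PDGFRa+SCA1-, 41.2, 58.4 and 40.4 in PDGFRa-SCA1+ cells and 13.2, 7.86 and 5.69 in DCs. No fraction overlapped another, with PDGFRa+SCA1+ cells 248-fold above DCs (log2 fold change 7.87, SE 0.32, adjusted p = 2.83e-08, limma) and PDGFRa-SCA1+ cells 5.24-fold above DCs (log2 fold change 2.32, adjusted p = 0.000193). *Cxcl14*, a ligand of monocytes and dendritic cells, stood at 215, 140.4 and 199.5 in PDGFRa+SCA1+ and 51.1, 252 and 107 in PDGFRa+SCA1- cells and at no more than 0.102 in DCs and PDGFRa-SCA1+ cells (log2 fold changes over DCs 7.43 and 6.73, adjusted p = 1.03e-06 and 2.37e-06). *Ccl19*, a CCR7 ligand of dendritic cells and naive T cells, stood at 36.1, 17.4 and 25.02 in PDGFRa+SCA1+ and 19.9, 27.2 and 9.58 in PDGFRa+SCA1- cells, was listed at 0 in DCs, and reached 0.803 in 1 PDGFRa-SCA1+ sample (log2 fold change over DCs 4.71 in the former). *Cxcl13*, the B cell attractant, stood at 200.2, 0 and 0 in PDGFRa+SCA1+ and 583, 13.9 and 0 in PDGFRa+SCA1- cells, in the order of mice A, E, F. It was thus high in mouse A, and no test called it.

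Of the epithelial and transmembrane ligands, *Ccl20* and *Cxcl16* were higher in every DC sample than in any other sample. *Ccl20*, the CCR6 ligand of mucosal epithelia, stood at 357, 288 and 143 in DCs, 21.5, 0.319 and 9.97 in PDGFRa-SCA1+ cells and at most 0.131 in the PDGFRa+ fractions, without overlap (log2 fold change of PDGFRa+SCA1+ cells against DCs -7.88, adjusted p = 2.82e-05, limma). Its excess in PDGFRa-SCA1+ over PDGFRa+SCA1+ cells (log2 fold change 2.72, adjusted p = 0.0447) was lost without any sample of PDGFRa+SCA1+ cells or without mouse A or F of PDGFRa-SCA1+ cells, with adjusted p between 0.0983 and 0.165. *Cxcl16*, the membrane-bound CXCR6 ligand, stood at 1645, 1457 and 1761 in DCs, 283, 305 and 379 in PDGFRa+SCA1+, 222, 437 and 312 in PDGFRa+SCA1- and 342, 437 and 618 in PDGFRa-SCA1+ cells. DCs were above every other sample, by 5.03-fold, 5.01-fold and 3.48-fold (log2 fold changes -2.33, -2.37 and -1.84, adjusted p = 5.22e-05, 4.52e-05 and 0.00037). *Cx3cl1*, fractalkine, the other transmembrane ligand, stood at 135, 150.5 and 183 in DCs, 380.1, 281 and 446 in PDGFRa+SCA1+, 124, 171 and 512 in PDGFRa+SCA1- and 30.8, 55.7 and 97.3 in PDGFRa-SCA1+ cells. Only PDGFRa-SCA1+ against PDGFRa+SCA1+ cells passed the test (6.02-fold lower, log2 fold change -2.69, adjusted p = 0.00227). With the mouse as a block, *Cx3cl1* also passed in PDGFRa+SCA1+ and PDGFRa-SCA1+ cells against DCs (log2 fold changes 1.22 and -1.47, adjusted p = 0.0311 and 0.0125).

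*Ccl28*, *Ccl27a*, *Ccl25* and *Cxcl17*, also ligands of epithelia, were low everywhere, between 0 and 11.6. *Ccl27a* stood at 3.15, 4.23 and 2.49 in DCs and at most 1.19 in PDGFRa+SCA1- and 0.716 in PDGFRa-SCA1+ cells (log2 fold changes -1.51 and -1.495). *Ccl28* stood at 0.778, 2.59 and 2.25 in DCs and at most 0.041 in those 2 fractions (-1.46 and -1.42). Each of these 4 calls was lost when single samples were left out: against PDGFRa+SCA1- cells *Ccl27a* without any DC sample or the PDGFRa+SCA1- sample of mouse A (adjusted p between 0.0585 and 0.11) and *Ccl28* without any PDGFRa+SCA1- sample (0.0642 to 0.0702), and against PDGFRa-SCA1+ cells *Ccl27a* without any of the 6 samples (0.0567 to 0.139) and *Ccl28* without any PDGFRa-SCA1+ sample (0.0855 to 0.1). With the mouse as a block *Ccl27a* against PDGFRa-SCA1+ cells was also no longer called (adjusted p = 0.0535).

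*Ccl3*, *Ccl4*, *Ccl5*, *Ccl6* and *Ccl9*, ligands typical of macrophages and lymphocytes, were scattered over single samples, and no test called any of the 5. *Ccl4* stood at 47.7, 0 and 128, *Ccl5* at 0, 0.298 and 65.9 and *Ccl3* at 35.9, 0 and 14.03 in PDGFRa-SCA1+ cells, in the order of mice A, E, F. *Xcl1*, a ligand of NK and T cells, reached 45.2 and *Ccl22* 13.3 in mouse F of the same fraction. *Ccl22* also reached 15.9 in the PDGFRa+SCA1- sample of mouse F. Within PDGFRa-SCA1+ cells mouse F was thus the highest for *Ccl4*, *Ccl5*, *Xcl1* and *Ccl22*, and it also had *Cd3g* at 39.5, *Nkg7* at 49.1 and *Ifng* at 79.4. In PDGFRa+SCA1+ cells *Ccl9* stood at 16.98, 2.203 and 0.0453 and *Ccl6* at 0, 0 and 13.4, and *Ccl9* and *Ccl6* were between 0 and 10.7 in the other fractions. The part of leukocyte transcripts in these values was not tested.

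**Figure D3:**
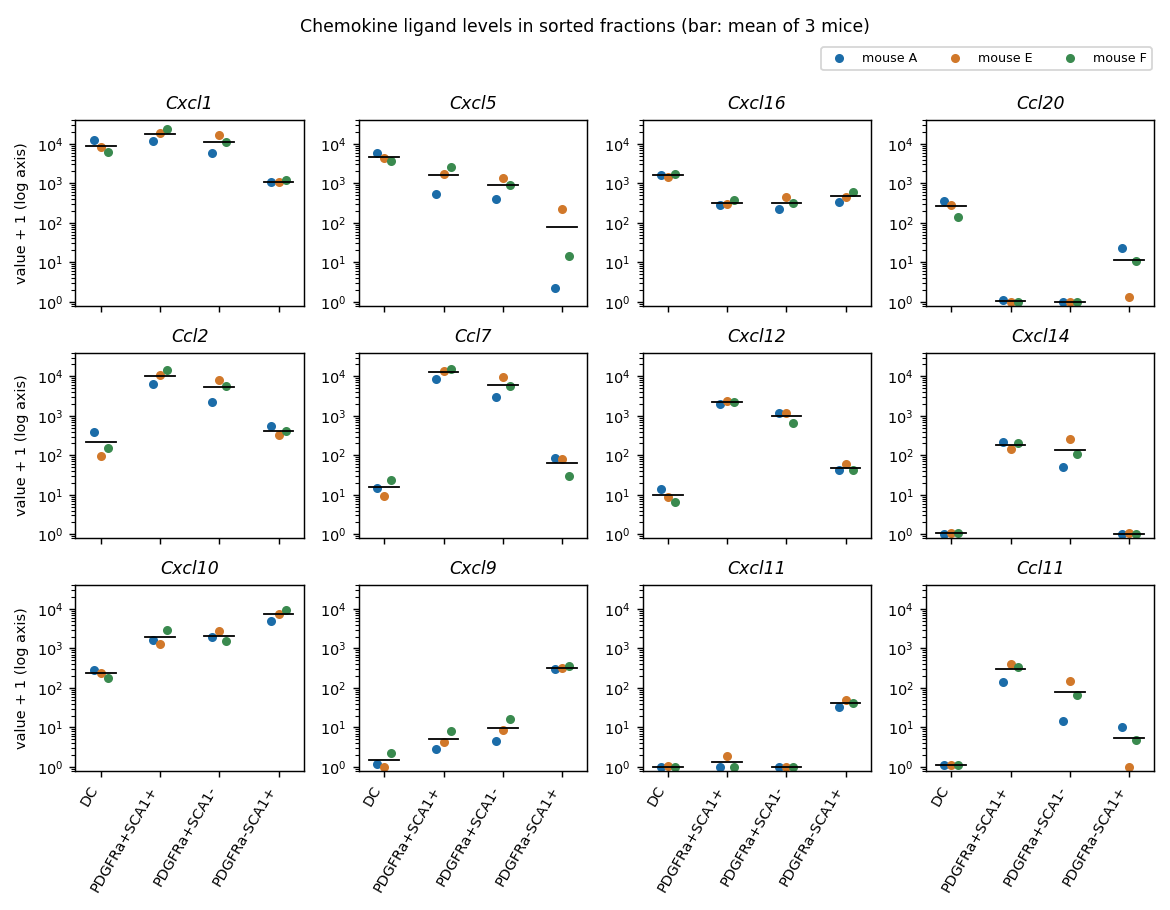
Levels of 12 chemokine ligands in the 4 sorted fractions, as value + 1 on a log axis, with 1 dot per mouse (A, E and F in colour) and a bar at the mean of 3 mice. *Ccl2*, *Ccl7*, *Cxcl12*, *Cxcl14* and *Ccl11* are highest in the PDGFRa+ fractions, *Cxcl9*, *Cxcl10* and *Cxcl11* in PDGFRa-SCA1+ cells, and *Cxcl5*, *Cxcl16* and *Ccl20* in DCs.

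Within the PDGFRa+ mesenchyme, SCA1+ and SCA1- cells were compared to ask whether SCA1 separates a chemokine programme. None of the 28 ligands was called by limma at an adjusted p under 0.05, where 0.587% of all genes were called, 0.435% higher and 0.153% lower, and 4 had an unadjusted p under 0.05, as had 11.7% of all genes. The count was 0 under each alternative setting and 1 without the PDGFRa+SCA1+ sample of mouse E. The smallest p of the 4 was that of *Ccl17*, with means of 7.82 in SCA1+ and 0.110 in SCA1- cells (log2 fold change 2.596, SE 0.67, adjusted p = 0.141, limma). *Cxcl12* followed, 2.23-fold higher in SCA1+ cells (log2 fold change 1.21, SE 0.32, adjusted p = 0.148, limma). Neither gene's values overlapped. *Ccl7* (log2 fold change 1.17) and *Ccl11* (2.36) were the others. The median over the ligands was 0.71, against 0.15 over all genes.

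Chemokine receptors, of which 22 were listed, were mostly low in these fractions, and 7 passed the filter. Against DCs 6 of the 7 were higher in PDGFRa-SCA1+ cells, 2 in PDGFRa+SCA1+ and 3 in PDGFRa+SCA1- cells, and none was lower in any of the 3. Of all genes 11.5%, 9.85% and 9.98% were higher in that order, and 11.3%, 14% and 18.9% lower. *Ackr1*, the non-signalling chemokine receptor of venules, stood at 469, 487 and 453 in PDGFRa-SCA1+ cells and 0, 0 and 0.392 in DCs (log2 fold change 8.72, adjusted p = 6.49e-07, limma). *Ackr3*, which binds and removes CXCL12, stood at 122, 237 and 243 in PDGFRa+SCA1+, 248, 305 and 179 in PDGFRa+SCA1-, 107, 122 and 59.1 in PDGFRa-SCA1+ cells and 6.18, 1.43 and 11.03 in DCs, so the 2 fractions highest for *Cxcl12* were also the highest for *Ackr3*. *Ackr2*, a scavenger of inflammatory CC ligands, stood at 75.1, 163 and 32.1 in PDGFRa-SCA1+ cells (log2 fold change over DCs 6.22, adjusted p = 7.66e-05). It would not have passed the filter without these samples, so its p-value gives no further support. *Ackr4* was also higher in PDGFRa-SCA1+ cells (log2 fold change 4.496, adjusted p = 0.00345). Of the inducing cytokines, *Il6* stood at 1801, 2624 and 6095 in PDGFRa+SCA1+ cells against 4.65, 6.97 and 3.82 in DCs (log2 fold change 8.995, adjusted p = 1.68e-07), and *Tnf* and *Ltb* were lower than in DCs (log2 fold changes -4.91 and -8.07). Immediate early genes, which respond to dissociation among other stimuli, summed to 26448 to 38362 in all 12 samples, and the 12 NF-kB subunits and feedback genes to 8086 to 16555. Their part in the levels of the inflammatory ligands was not tested.

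In the transwell experiment, SCA1+Msc and DCs at day 0 differed in 21 of 33 ligands tested, 15 higher and 6 lower in SCA1+Msc, where 46.1% of all genes were called, 21.4% higher and 24.7% lower, with a median of 0.96 against -0.07 over all genes. *Cxcl12* stood at 1002 and 938 in SCA1+Msc and 5.83 and 8.503 in DCs (135-fold, log2 fold change 6.91, adjusted p = 1.01e-07, limma). *Ccl7* stood at 6484 and 7007 in SCA1+Msc and 98.8 and 81.6 in DCs (74.8-fold, log2 fold change 6.21, adjusted p = 4.15e-07). *Ccl2* stood at 5445 and 5872 in SCA1+Msc and 953 and 505 in DCs (7.77-fold, log2 fold change 3.03, adjusted p = 0.000361). These 3 ligands were thus highest in the mesenchymal cells here as well, in other animals. *Cxcl14* (6.17), *Ccl11* (6.64), *Ccl19* (5.05), *Ccl8* (4.45), *Cxcl10* (3.497), *Cxcl11* (2.79) and *Cxcl9* (2.42) were also higher on the log2 scale, as were *Ccl9*, *Ccl3*, *Ccl21a*, *Ccl6* and *Cxcl3*. The call of *Cxcl11* gives no further support, because it passed the filter only with these SCA1+Msc samples. Lower in SCA1+Msc were *Ccl20* (74.6-fold), *Cxcl5* (5.83-fold), *Cxcl16* (5.73-fold), *Cxcl2* (2.43-fold), *Ccl5* and *Ccl22*. Calls of *Ccl21a*, *Cxcl2*, *Ccl5* and *Ccl6* were lost without replicate 1 of DCs (adjusted p = 0.0566, 0.0789, 0.151 and 0.132), *Ccl5* also without replicate 1 of SCA1+Msc (0.0707), *Ccl6* without any of the 4 samples (0.0759 to 0.132) and *Cxcl3* without any but replicate 1 of DCs (0.0861 to 0.243). The endothelial markers summed to 406 to 432 in SCA1+Msc at day 0 and 64.9 to 68.9 in DCs, and their part in the CXCR3 ligands was not tested.

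DC organoids were compared with fresh DCs at day 0, to see what culture kept of the ligands. The comparison was unpaired, because no label ties a culture to a day 0 sample of the same animal. In EM 23 of 33 ligands differed from day 0, 3 higher and 20 lower (44.4% of all genes called, 27.1% higher and 17.2% lower), with a median of -1.85 against 0.12 over all genes. In co-culture 19 differed, 3 higher and 16 lower (42.3% of all genes called, 23.2% higher and 19.1% lower), with a median of -1.17 against 0.00. Both comparisons share the samples of day 0. *Cxcl2* stood at 4555 and 3288 at day 0, 30.8 and 35.8 in EM and 64.4 and 111 in co-culture. It fell 118-fold in EM and 44.7-fold in co-culture (log2 fold changes -6.82 and -5.498, adjusted p = 5.75e-07 and 1.94e-06, limma). *Cxcl1* stood at 7963 and 6030.3 at day 0, 174 and 125 in EM and 215 and 315 in co-culture and fell 46.8-fold and 26.4-fold (adjusted p = 3.08e-05 and 9.1e-05). *Cxcl3* stood at 168 and 128 at day 0, 7.93 and 10.5 in EM and 19.97 and 20.9 in co-culture, a fall of 16.05-fold and 7.25-fold (adjusted p = 2.35e-06 and 1.88e-05). *Cxcl5* did not follow its neighbours. It stood at 3599 and 2898 at day 0, 3412 and 3658 in EM and 5749 and 5993 in co-culture, where it rose 1.81-fold over day 0 (log2 fold change 0.86, adjusted p = 0.00864). This call was lost without replicate 2 of day 0 (adjusted p = 0.0706).

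Among the other ligands of DCs, *Cxcl10* stood at 219 and 174 at day 0, 0.0622 and 2.22 in EM and 0.0496 and 1.296 in co-culture (log2 fold changes -6.73 and -6.98, adjusted p = 2.23e-05 and 1.95e-05, limma). *Cxcl16* stood at 2515 and 2216 at day 0, 252 and 260.04 in EM and 409 and 464 in co-culture and fell 9.24-fold and 5.42-fold (adjusted p = 4.09e-07 and 1.79e-06). *Ccl2* stood at 953 and 505 at day 0, 115 and 109 in EM and 149.9 and 359 in co-culture, a fall of 6.51-fold in EM (adjusted p = 0.000984) and of 2.86-fold in co-culture (adjusted p = 0.0162), the latter lost without replicate 1 of day 0 or of the co-culture (0.127 and 0.128). *Ccl7* fell as well, by log2 fold changes of -3.41 and -1.76, and *Ccl5* by -2.93 and -3.93. *Cxcl9*, *Ccl4*, *Ccl3* and *Ccl22* were listed at 0 in both organoid groups after values between 1.92 and 22.8 at day 0. *Cxcl12* and *Ccl21a*, low in DCs from the start, also fell in both groups (log2 fold changes of *Cxcl12* -2.07 and -2.76), and *Ccl6* fell in EM (-2.36). The inflammatory ligands named so far, *Cxcl5* aside, were thus below their day 0 values. *Ccl20* stood at 183 and 126 at day 0, 119 and 109 in EM and 91.5 and 201 in co-culture, and no difference was called (adjusted p = 0.787 and 0.947). *Cx3cl1* stood between 202 and 331 in all 6 samples and was not called either.

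Beside *Cxcl5* in co-culture, the ligands that rose in organoids were epithelial ones. *Ccl28*, a CCR10 ligand of mucosal surfaces, stood at 1.37 and 0.342 at day 0, 21.4 and 31.5 in EM and 20.3 and 16.1 in co-culture, a rise of 30.9-fold and 21.2-fold (log2 fold changes 3.92 and 3.42, adjusted p = 0.000108 and 0.000274, limma). *Cxcl17*, a mucosal ligand, stood at 14.2 and 0.21001 at day 0, 29.3 and 27.2 in EM and 66.1 and 65.9 in co-culture, with day 0 samples that differed widely (adjusted p = 0.0284 and 0.00524), and the call in EM was lost without either EM sample (0.104 and 0.0931). *Ccl25* rose in EM (log2 fold change 0.98, adjusted p = 0.0229) and the call was lost without replicate 1 of day 0 or either EM sample (0.112, 0.104 and 0.0619). *Xcl1*, *Cxcl11*, *Ccl24*, *Ccl17* and *Ccl9*, all at no more than 5.78 in either sample of day 0, were called lower in EM, but these calls rested on single samples. *Xcl1* lost it without any but replicate 2 of day 0 (adjusted p = 0.0589 to 0.0678), *Cxcl11* and *Ccl24* without any of the 4 (0.0553 to 0.233), *Ccl17* without any but replicate 1 of day 0 (0.084 to 0.131) and *Ccl9* without replicate 1 of day 0 or of EM (0.0917 and 0.063). In co-culture *Xcl1* lost it without replicate 1 of day 0 or either co-culture sample (0.0638 to 0.0701) and *Cxcl11* without any of the 4 (0.058 to 0.18). All 12 NF-kB genes and all 10 immediate early genes also fell in both organoid groups, where 17.2% of all genes in EM and 19.1% in co-culture were lower. The immediate early genes summed to 18775 to 20079 at day 0, 1710.3 to 1826 in EM and 2745 to 2784 in co-culture, and 9 and 8 of 11 leukocyte markers fell. Their part in the falls was not tested.

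Co-cultured and EM organoids were compared to ask what the presence of SCA1+Msc, together with MM, changed. Of 33 ligands 6 differed, 5 higher and 1 lower in co-culture, where 12.9% of all genes were called, 5.73% higher and 7.21% lower, with a median of 0.00 against -0.13. *Ccl7* stood at 18.4 and 36.1 in co-culture and 7.87 and 7.23 in EM, a difference of 3.61-fold without overlap (log2 fold change 1.65, SE 0.297, adjusted p = 0.00599, limma), and only this call held without each sample in turn. *Cxcl2* was 2.63-fold higher in co-culture (adjusted p = 0.0256), *Cxcl3* 2.21-fold (adjusted p = 0.0177) and *Cxcl16* 1.71-fold (adjusted p = 0.00653). *Ccl6* was listed at 0 in EM and stood at 2.93 and 0.887 in co-culture (adjusted p = 0.0278), and *Ccl25* was lower (log2 fold change -1.07, adjusted p = 0.043). *Cxcl5* missed the threshold at adjusted p = 0.0503, with both co-culture samples above both EM samples. Without single samples the count fell to 2 or 3. *Cxcl16* was lost without replicate 2 of the co-culture (adjusted p = 0.0552), *Cxcl2* without it (0.167) or without either EM sample (0.138 and 0.0891), *Cxcl3* without either co-culture sample (0.0877 and 0.0932) or EM replicate 1 (0.123), *Ccl6* without any but co-culture replicate 2 (0.112 to 0.185) and *Ccl25* without any of the 4 (0.13 to 0.191). With the replicate number as a block *Ccl25* was not called (0.0587).

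Other transcripts moved in the same comparison. *Il1a*, a cytokine that induces these ligands, was listed at 0 in EM and stood at 74.8 and 87.7 in co-culture (log2 fold change 6.36, adjusted p = 8.02e-06, limma). *Il33*, a further listed cytokine, had means of 49.7 in co-culture and 5.93 in EM (log2 fold change 2.88, adjusted p = 0.000162, limma). Of 12 NF-kB genes 3 were higher in co-culture, against 5.73% of all genes. They were *Tnfaip3* (2.02), *Birc3* (1.41) and *Zc3h12a* (0.92) on the log2 scale. *Ackr3* was higher as well, at 21.9 and 10.3 against 2.05 and 3.51 (log2 fold change 2.12, adjusted p = 0.00197). Mesenchymal markers summed to 2.31 to 14.9 in co-cultured and 1.15 to 6.21 in EM organoids, against at least 22309 in SCA1+Msc. Leukocyte markers summed to 92.5 to 96.3 in co-cultured and 24.97 to 28.5 in EM organoids, and of the 11 tested *Cd68*, a macrophage gene, was called (log2 fold change 1.76, adjusted p = 0.046, limma). *Lyz2* had means of 8.57 in co-culture and 0.332 in EM without overlap (log2 fold change 2.39, adjusted p = 0.0585, limma). *Csf1r* had means of 12.3 and 6.29 with overlap. *Ptprc* reached 0.061 in 1 co-culture sample, and *Adgre1*, *Clec4f*, *C1qa* and *C1qb* were listed at 0 in all 4 organoid samples. *Cd74*, a receptor of the cytokine MIF and part of antigen presentation, was also higher (log2 fold change 2.67, adjusted p = 0.00396). Hepatocyte markers summed to 176 to 376.5 in co-culture and 1514 to 1626 in EM, and none of the 5 was called. *Msln*, the only one of 4 mesothelial markers tested that was called, stood at 4500.2 and 3878 in co-culture and 296 and 326 in EM. The part of these transcripts in the ligands' differences was not tested.

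Cultured SCA1+Msc were compared with SCA1+Msc at day 0, again unpaired. Cultured alone, 20 of 33 ligands differed, 4 higher and 16 lower (44.8% of all genes called, 27.4% higher and 17.5% lower), with a median of -0.76 against 0.19 over all genes. In co-culture 18 differed, 4 higher and 14 lower (43.3% of all genes called, 26% higher and 17.3% lower), with a median of -0.22 against 0.17, and no call of these 18 was lost when single samples were left out. Both comparisons share the samples of day 0. *Cxcl1* stood at 11173 and 11479 at day 0, 26.4 and 93.3 alone and 69.99 and 155 in co-culture. It fell 189-fold alone and 101-fold in co-culture (log2 fold changes -7.799 and -6.75, adjusted p = 4.44e-06 and 1.09e-05, limma). *Cxcl2* stood at 1521 and 1709 at day 0, 0.693 and 0 alone and 2.52 and 1.47 in co-culture (log2 fold changes -10.28 and -9.09, adjusted p = 4.82e-08 and 1.18e-07). *Cxcl3* stood at 231 and 243 at day 0, 0 and 0.233 alone and 0.181 and 0.554 in co-culture (log2 fold changes -7.74 and -7.46). *Cxcl10* stood at 2434 and 2019 at day 0, 0.0579 and 0.422 alone and 8.13 and 2.28 in co-culture (log2 fold changes -10.82 and -8.66, adjusted p = 1.5e-06 and 5.87e-06). *Cxcl2*, *Cxcl3* and *Cxcl10*, whose promoters are printed above with *Cxcl1*, were thus at no more than 8.13 in every cultured sample.

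*Ccl2* stood at 5445 and 5872 at day 0, 71.7 and 105 alone and 358 and 660.3 in co-culture, a fall of 64.1-fold and 11.1-fold (adjusted p = 6.59e-06 and 0.000174, limma). *Ccl7* stood at 6484 and 7007 at day 0, 172 and 249 alone and 598 and 861 in co-culture, a fall of 32.1-fold and 9.25-fold (adjusted p = 2e-06 and 2.79e-05). *Cxcl16* fell 4.68-fold and 3.004-fold. *Cxcl9*, *Cxcl11* and *Xcl1* were listed at 0 in all 4 cultured samples, after at least 46.2, 9.32 and 3.42 at day 0 in that order. *Ccl4*, *Ccl3*, *Ccl5* and *Ccl21a* also fell in both cultures, from between 6.26 and 55.3 at day 0 to at most 8.02 in any cultured sample. *Ccl11* and *Cxcl5* were called lower in SCA1+Msc alone (log2 fold changes -1.37 and -0.76), *Ccl11* not without replicate 1 of day 0 (adjusted p = 0.0502) and *Cxcl5* not without it or without replicate 1 of the culture (0.0596 and 0.112).

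The ligands that rose in cultured SCA1+Msc were the same 4 genes alone and in co-culture. *Cxcl12* stood at 1002 and 938 at day 0, 3798 and 3178 alone and 2903 and 2967 in co-culture, a rise of 3.597-fold and 3.03-fold (log2 fold changes 1.84 and 1.597, adjusted p = 0.000358 and 0.000883, limma). *Ccl6*, a CCR1 ligand of myeloid cells, stood at 10.05 and 9.48 at day 0, 80.1 and 119.6 alone and 54.3 and 74.2 in co-culture (adjusted p = 9.3e-05 and 0.000348). *Ccl9*, its neighbour, stood at 29.1 and 13.4 at day 0, 49.2 and 71.2 alone and 76.97 and 159 in co-culture (adjusted p = 0.0232 and 0.00233), and the rise alone was lost without replicate 2 of day 0 or of the culture (0.144 and 0.131). *Cxcl13* stood at 0 and 7.11 at day 0, 33.4 and 52.2 alone and 28.3 and 92.4 in co-culture (adjusted p = 0.00463 and 0.00323). Of the leukocyte markers *Lyz2*, a myeloid gene, stood at 184 and 78.8 at day 0, 367 and 588 alone and 253 and 274 in co-culture, while *Ptprc* (CD45) and the Kupffer cell gene *Clec4f* were listed at 0 in all 4 cultured samples after 2.24 and 0.592 and, for *Clec4f*, 17.5 and 28.7 at day 0. *Csf1r* had means of 7.22 at day 0, 6.42 alone and 7.14 in co-culture. *Cd68*, *C1qa* and *C1qb* had lower means than at day 0 but remained, at 12.0, 7.63 and 11.2 alone and 6.59, 2.47 and 2.59 in co-culture. The 14 markers summed to 245 to 367 at day 0, 389 to 645 alone and 272 to 296 in co-culture, and their part in *Ccl6* and *Ccl9* was not tested. *Cxcl14*, *Ccl8*, *Ccl19* and *Cx3cl1* were not called against day 0, and in co-culture *Cxcl14* stood at 169 and 382 and *Ccl8* at 60.6 and 23.04.

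The falls came with falls of other induced genes. All 12 NF-kB genes were lower in both cultures, where 17.5% of all genes alone and 17.3% in co-culture were lower. The 12 genes had medians of -3.20 alone and -2.92 in co-culture. They summed to 10219 to 10368 at day 0, 753 to 798 alone and 919 to 1029.9 in co-culture. Immediate early genes summed to 30441 to 30934 at day 0, 913 to 1056 alone and 1353 to 1373 in co-culture. Hepatocyte markers summed to at least 17689 at day 0 and at most 411 in culture, and endothelial markers to at least 406 and at most 175. Among the endothelial markers *Clec4g* had means of 197 at day 0, 1.52 alone and 0 in co-culture. *Pecam1* was kept, with means of 75.3, 63.9 and 78.8 in that order, as was *Cdh5* with 32.7, 44.2 and 50.7. The part of all these genes and markers in the falls was not tested. *Il6* stood at 2466 and 2159.8 at day 0, 16.2 and 22.7 alone and 76.8 and 59.9 in co-culture. Of 10 chemokine receptors tested 6 fell in each culture and none rose, where 17.5% and 17.3% of all genes fell. *Ackr3* stood at 300.2 and 279.7 at day 0, 217 and 217 alone and 209.8 and 226 in co-culture.

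**Figure D4:**
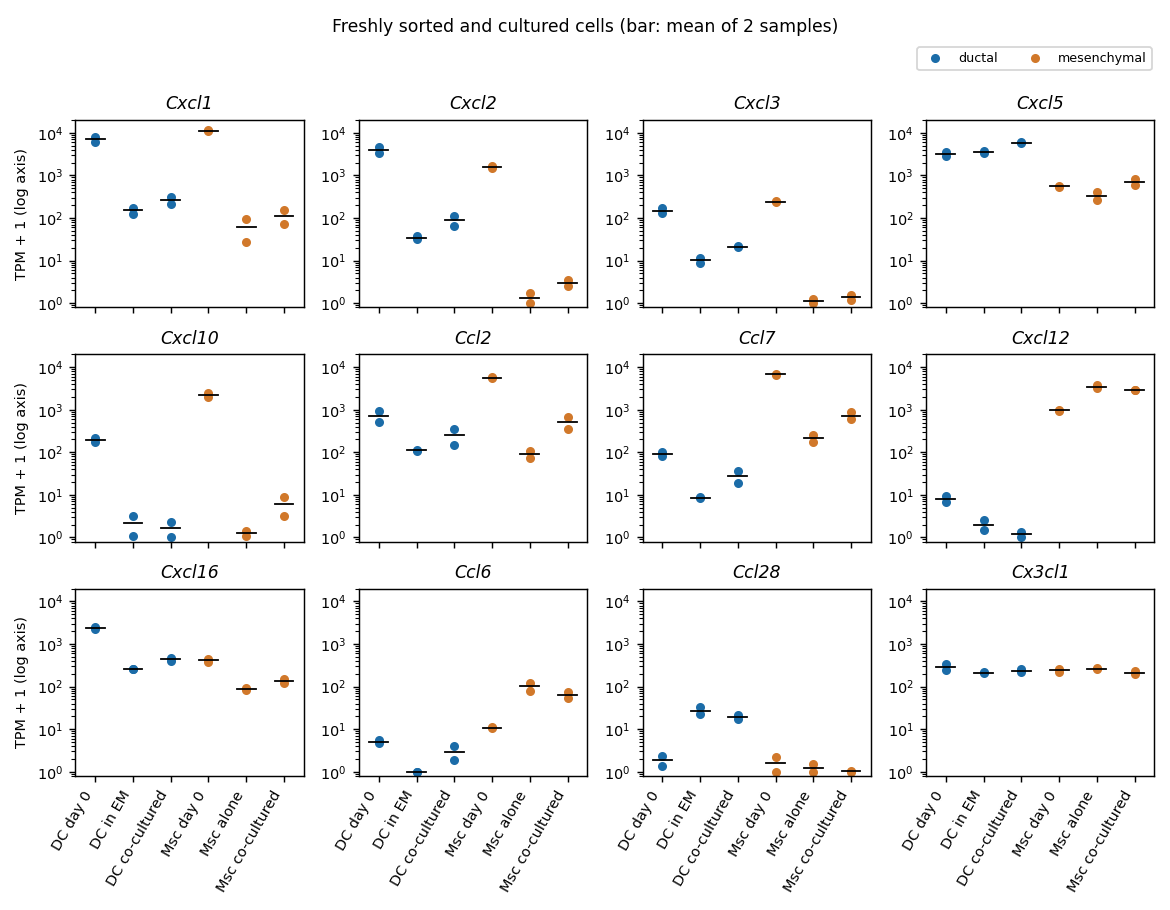
Levels of 12 chemokine ligands in the 6 transwell groups, as TPM + 1 on a log axis, with 1 dot per sample (ductal or mesenchymal in colour) and a bar at the mean of 2 samples. *Cxcl1*, *Cxcl2*, *Cxcl3* and *Cxcl10* are lower in every cultured group than at day 0, *Cxcl12* is higher in cultured mesenchymal cells, *Ccl28* is higher in organoids, and *Cx3cl1* stays between 195 and 331 in all 12 samples.

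SCA1+Msc with and without DCs on the insert were compared to ask whether DCs changed the mesenchymal ligands. No ligand was called by limma, where 0.127% of all genes were called, 0.0937% higher and 0.0331% lower, and 12 of 33 had an unadjusted p under 0.05, as had 6.96% of all genes. With a pseudocount of 0.1 the count was 1, and it was 0 under the other settings. *Ccl7* was 3.47-fold higher in co-culture (log2 fold change 1.79, SE 0.297, adjusted p = 0.081), *Ccl2* 5.77-fold (adjusted p = 0.105) and *Cxcl5* 2.13-fold (adjusted p = 0.116). Both co-cultured samples were above both samples alone for each of these 3. The difference in *Il6* passed the test (log2 fold change 1.77, SE 0.21, adjusted p = 0.0304, limma).

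Whether the change from day 0 differed between the cells on the insert and those below was tested in the co-culture, where both shared the medium. The change differed for 15 of 33 ligands, 9 more positive and 6 more negative in DCs, where 28.3% of all genes were called, 13.8% higher and 14.5% lower, with a median difference of 0.44 against -0.14. *Cxcl3* had the largest positive difference, with a change of -2.79 in DCs and -7.46 in SCA1+Msc (difference 4.67, SE 0.34, adjusted p = 2.19e-05, limma). *Cxcl2* changed by -5.498 and -9.09 (difference 3.596, adjusted p = 0.000489). *Cxcl12* fell by 2.76 in DCs, from 5.83 and 8.503 to 0.04101 and 0.357, and rose by 1.597 in SCA1+Msc (difference -4.36, adjusted p = 5.06e-05). *Ccl6* changed by -0.91 and 2.58 (difference -3.497, adjusted p = 0.00105), and *Ccl28* by 3.42 and -0.53 (difference 3.95, adjusted p = 0.00194). Of the 15, 8 fell in both cell types and differed in how far. *Cxcl9*, *Cxcl11*, *Ccl22* and *Ccl3* were listed at 0 in all co-culture samples, so their difference is that of the fresh cells. For *Ccl22*, at 0 in SCA1+Msc at day 0 as well, it is the fall in DCs alone. *Cxcl1* and *Cxcl10* did not pass the test of the difference (adjusted p = 0.0719 and 0.181). The other 9 calls held without each of the 8 samples, and 6 were lost. *Cxcl13* was lost without replicate 2 of DCs at day 0, either co-cultured DC sample or replicate 2 of co-cultured SCA1+Msc (adjusted p = 0.0602 to 0.0809), *Cxcl17* without either co-cultured DC sample or any SCA1+Msc sample (0.0731 to 0.0979), and *Ccl22* without either co-cultured DC sample (0.0556 and 0.0543). *Ccl2* was lost without replicate 2 of DCs at day 0 or in co-culture, either SCA1+Msc sample of day 0 or replicate 1 of co-cultured SCA1+Msc (0.0695 to 0.139), *Ccl7* without these except replicate 1 of SCA1+Msc at day 0, or without replicate 1 of DCs at day 0 (0.0504 to 0.0956), and *Ccl3* without replicate 1 of DCs at day 0 or any co-cultured sample (0.0635 to 0.0858).

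**Figure D5:**
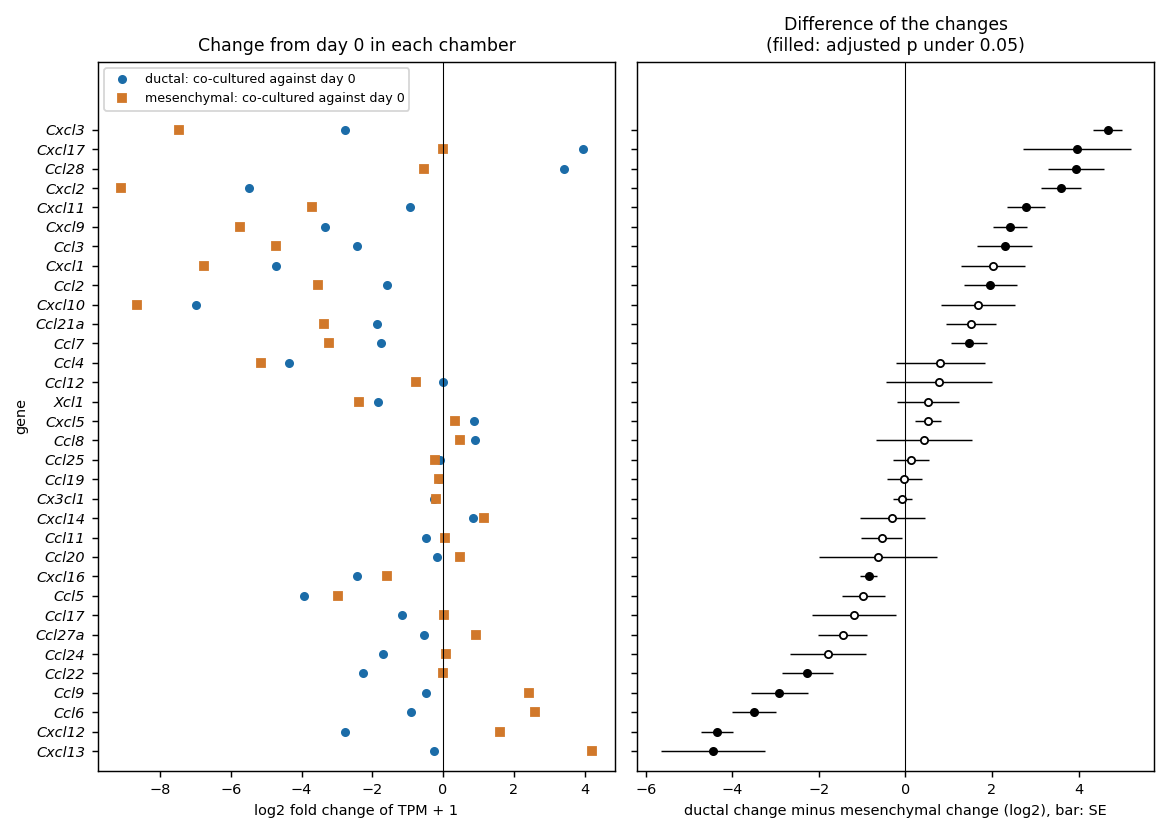
Change from day 0 to co-culture of the 33 chemokine ligands tested, as log2 fold change of TPM + 1, in ductal cells (circles) and mesenchymal cells (squares) on the left, and the difference of both changes with its SE on the right, filled where the adjusted p is under 0.05. *Cxcl3* is at the top with 4.67 and *Cxcl13* and *Cxcl12* are at the bottom with -4.45 and -4.36.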

How the data were processed

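RNA of 24 samples was analysed, 12 sorted fractions in 4 groups and 12 transwell samples in 6 groups, grouped by the population or culture in their labels. Libraries were made by Smart-seq2 and sequenced from one end, and the authors mapped the reads to GRCm38 with STAR 2.5.0a, dropped reads of low mapping quality and counted reads on exons with featureCounts, for which the submitters' processing notes name version 1.6.0 in the transwell samples only. The authors deposited RPKM for the transwell samples, which were divided by their sum to give TPM. For the sorted fractions the authors deposited values named TPM, treated here as a score, because each had been divided by the total of a sample that changed down the table in a cycle of 12. Each was therefore 0.722 to 1.39 times its TPM. The 4 columns of fraction means were not used. With these totals undone, 92.9% of 47020 low values were whole reads within 0.02 of a read, against 13.4% as deposited, and 93.0% of 50173 in the transwell samples, from which depth was taken.

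Log2(value + 1) of all genes past the filter was fitted with limma 3.58.1 in R 4.3.3, with 1 mean per group over the 12 samples of an experiment and eBayes with trend. Tests were two-sided, with Benjamini-Hochberg adjustment over all 17028 or 18136 genes and a threshold of 0.05. A fold change on this scale understates that of low genes, and folds given as such are ratios of group means. The fit was tested on simulated data. All ligands could be named, and those with a group mean of at least 10 or past the threshold are described. Of other lists, up to 4 genes past the threshold with the largest change, and markers, are named. Members and lists were chosen with earlier results of these data known.

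Fractions of the same mouse are paired by the labels, and residuals of same-mouse samples correlated across genes at 0.00395 to 0.0973. Alternatives were a pseudocount of 0.1, no filter, quantile normalization, only the groups compared, other scalings of the values, the replicate number as a block, and leaving out each sample. Gene positions are those of GENCODE on GRCm38. Figures were drawn with matplotlib 3.10.9 in Python 3.11.15.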

Additional observations from a re-analysis of the deposited data

Results flagged for a closer look

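The change from fresh cells to co-culture differed between DCs and SCA1+Msc for 15 of 33 chemokine ligands, by the limma test of the difference itself, where 28.3% of all genes were called. Of the 15 calls, 9 held and 6 were lost when single samples were left out (*Ccl2*, *Ccl3*, *Ccl7*, *Ccl22*, *Cxcl13* and *Cxcl17*). On the log2(TPM + 1) scale, the change in DCs minus that in SCA1+Msc was 4.67 for *Cxcl3*, 3.97 for *Cxcl17*, 3.95 for *Ccl28*, 3.60 for *Cxcl2*, 2.79 for *Cxcl11*, 2.42 for *Cxcl9*, 2.29 for *Ccl3*, 1.96 for *Ccl2* and 1.47 for *Ccl7*. It was -0.85 for *Cxcl16*, -2.27 for *Ccl22*, -2.92 for *Ccl9*, -3.50 for *Ccl6*, -4.36 for *Cxcl12* and -4.45 for *Cxcl13*. *Cxcl9*, *Cxcl11*, *Ccl22* and *Ccl3* were listed at 0 in every co-cultured sample of both cell types.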

How the results depend on the processing

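No ligand past the threshold changed direction under any alternative it was recomputed with. Of 176 calls over the 13 comparisons, 174 stayed past the threshold with the replicate block, 163 with quantile normalization, 162 with no filter and 157 with a pseudocount of 0.1. Those lost with the replicate block were *Ccl27a* in PDGFRa-SCA1+ cells against DCs and *Ccl25* in co-cultured DCs against EM, and it added calls of *Ccl8*, *Cx3cl1* and *Ccl24*. With the recycled totals undone, 52 of 54 calls stayed. Of the calls that could be recomputed, 113 of 118 stayed with RPKM as deposited and 147 of 152 with only the groups compared, which cannot be run for the difference of changes. With a pseudocount of 0.1, the count in co-cultured against lone SCA1+Msc went from 0 to 1 (*Ccl3*), and the cause was not tested.

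Leaving out 1 sample at a time gave 9 to 12 ligands for PDGFRa+SCA1+ cells against DCs, 11 to 12 for PDGFRa+SCA1- and 9 to 13 for PDGFRa-SCA1+ cells. It gave 14 to 16 for PDGFRa-SCA1+ against PDGFRa+SCA1+ cells and 0 to 1 for PDGFRa+SCA1+ against PDGFRa+SCA1- cells, the 1 being *Ccl17* without the PDGFRa+SCA1+ sample of mouse E. In the transwell it gave 17 to 21 between fresh cells, 16 to 21 for DCs in EM, 15 to 18 for co-cultured DCs, 19 to 20 and 18 to 19 for SCA1+Msc alone and in co-culture, and 10 to 16 for the difference of changes. Co-cultured DCs against EM fell from 6 to between 2 and 3 whichever sample was left out. A lone sample was then assumed to vary like the other groups.

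Transwell replicate numbers are shared across groups, but residuals of same-numbered samples correlated at -0.0188 to 0.0295, so they were not read as pairs. There, the replicate block gave 5 ligands in place of 6 for co-cultured DCs against EM. With 2 samples a group in the transwell, a change in a ligand of low level may be missed.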
